A study of Mus musculus with 6 samples.

Results

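Expression of 10 mast cell genes was followed in polyadenylated RNA of the outer heart layer, epicardium together with subepicardium, dissected from E16.5 mouse embryos: the granule proteases Cpa3, Cma1, Tpsb2 and Tpsab1, the histamine-forming enzyme Hdc, the granule proteoglycan Srgn, the prostaglandin enzyme Hpgds, and the receptors Il1rl1, Cd200r3 and Kit. They were picked by name, with the difference between the groups already known, and all 10 were found among the 14549 genes measured. Because that difference chose them, their values are given as a description, and no test of them is read as a result. The study compared 3 control libraries, labelled wild type, with 3 libraries from embryos carrying Meis1fl/fl, Meis2fl/fl and WT1-Cre, called dKO here. The Cre driven by WT1, an epicardial gene, deletes in cells that have expressed that gene. Whether the controls carried the Cre or the floxed alleles was not given in the sources used here. Dissected layers of 2 hearts were pooled for each library, and 40 ng of RNA went into it, so the spread between single hearts was not measured. Libraries keep the numbers of their titles, which are 1, 2 and 4 for control and 1, 2 and 3 for dKO.

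Mast cells are resident blood-derived cells of connective tissue that store histamine and proteases in granules, where serglycin, the product of Srgn, binds them in place. They depend on the receptor tyrosine kinase Kit and its ligand, stem cell factor, and respond to interleukin 33 through ST2, the product of Il1rl1. Kit is not particular to them, since melanocytes, blood progenitors and some endothelial cells carry it too. GATA factors and MITF are transcription factors of the lineage. In the heart, mast cells are found in the subepicardial layer and around vessels.

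The sequence just upstream of the start site is shown for 3 granule genes that were low in every dKO library (Cpa3, Cma1, Hdc), for Il1rl1 and, beside them, for Kit, which was not low. Each run is the 250 bases before a RefSeq start on GRCm38.p6, written 5′ to 3′ on the strand of the gene. Capitals mark matches to AGATAA or TGATAA, the letters searched for GATA factors, on either strand. The windows lie at chr3:20242182-20242431 (minus strand) for Cpa3, chr14:55944676-55944925 (minus) for Cma1, chr2:126618679-126618928 (minus) for Hdc, chr1:40429320-40429569 (plus) for the first of 2 Il1rl1 starts, and chr5:75574737-75574986 (plus) for the first of 2 Kit starts.
Cpa3: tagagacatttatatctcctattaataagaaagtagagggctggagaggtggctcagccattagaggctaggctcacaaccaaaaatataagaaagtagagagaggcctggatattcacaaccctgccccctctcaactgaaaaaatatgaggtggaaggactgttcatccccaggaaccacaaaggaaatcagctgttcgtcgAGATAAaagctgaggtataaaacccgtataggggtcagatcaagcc
Cma1: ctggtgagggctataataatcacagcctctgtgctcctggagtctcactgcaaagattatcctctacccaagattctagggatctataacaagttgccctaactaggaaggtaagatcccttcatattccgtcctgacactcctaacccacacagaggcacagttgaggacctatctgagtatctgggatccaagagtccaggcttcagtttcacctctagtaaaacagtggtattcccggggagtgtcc
Hdc: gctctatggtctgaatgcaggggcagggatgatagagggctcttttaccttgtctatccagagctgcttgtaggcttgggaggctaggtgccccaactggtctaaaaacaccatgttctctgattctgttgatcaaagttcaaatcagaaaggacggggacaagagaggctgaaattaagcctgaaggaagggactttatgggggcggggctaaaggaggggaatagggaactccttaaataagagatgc
Il1rl1: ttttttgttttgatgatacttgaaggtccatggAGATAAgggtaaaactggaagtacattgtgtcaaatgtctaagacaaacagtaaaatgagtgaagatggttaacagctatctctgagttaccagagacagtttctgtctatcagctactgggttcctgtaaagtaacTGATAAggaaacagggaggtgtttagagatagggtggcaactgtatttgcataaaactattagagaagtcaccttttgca
Kit: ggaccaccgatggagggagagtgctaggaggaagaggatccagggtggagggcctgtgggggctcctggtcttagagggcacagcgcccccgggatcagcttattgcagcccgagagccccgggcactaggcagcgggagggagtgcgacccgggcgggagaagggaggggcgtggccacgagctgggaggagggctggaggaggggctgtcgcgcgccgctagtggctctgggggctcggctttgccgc

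The Cpa3 window held 1 match, AGATAA, which begins 46 bases upstream of the start. The Il1rl1 window held AGATAA from 217 and TGATAA from 80 bases upstream. The Cma1, Hdc and Kit windows held none of these letters. Forms of the GATA motif that end in G were not searched, in these or in the other windows. The Kit window was 70.8% G and C, against 44.4% for Cpa3, 48.0% for Cma1, 48.8% for Hdc, 37.6% for Il1rl1 and a median of 52.4% over all 32851 windows. Windows were found for 8 of the 10 genes, and 3 of these 8 (Cpa3, Il1rl1 and Cd200r3) held a GATA match, in 4 of their 11 windows. Over all windows of this length the share with such a match was 16.6%. The letters CACGTG or CATGTG, searched on both strands for MITF, were found in the window of 1 member (Hpgds), at 80 bases upstream, and in 17.6% of all windows. No match to one motif overlapped a match to the other. These matches describe letters in a window and not binding.

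The deposited values are normalised read counts per 1e6 reads, each holding an added 0.5 read. Recovered totals ran from 13146322 to 20635676 reads, and 1 read was worth 0.0487 to 0.0740. Of the targeted genes, Meis2 was 86.1, 85.6 and 63.3 in controls 1, 2 and 4 and 44.5, 34.8 and 44.5 in dKO 1, 2 and 3 (log2 change -0.90, limma adjusted p = 0.0035). Meis1 was 106, 63.6 and 63.4 against 58.5, 74.1 and 65.0 (limma adjusted p = 0.521), and these values cover all exons, not the deleted part. Markers of the labelled tissue were found in both groups, but at unequal levels. The 11 epicardial and mesothelial genes summed to 1950 to 2733 in controls and 326 to 400 in dKO libraries. The sum of 11 cardiomyocyte genes ran from 3993 to 8931 in controls and from 20942 to 24497 in dKO libraries, with control 1 the lowest. All 11 epicardial genes were lower and 10 of the 11 cardiomyocyte genes higher by limma. Whether the amount of tissue or the RNA per cell differed cannot be told from these levels. The part of this shift in marker levels in the results below was not tested.

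The proteases are the main stored enzymes of the granule, and all 4 were low in every dKO library. Cpa3, carboxypeptidase A3 (ENSMUSG00000001865, GRCm38 chromosome 3, 20215620 to 20242181), was 139, 111 and 131 in controls 1, 2 and 4 and 3.64, 4.03 and 3.48 in dKO 1, 2 and 3. The groups lay far apart and the dKO libraries lay close to one another. The means were 127 ± 14.5 (SD, n = 3) and 3.72 ± 0.283 (SD, n = 3), so the dKO mean was 2.92% of the control mean, on 183 reads in the dKO libraries together. The log2 difference of the value plus 1, dKO minus control, was -4.76 (SE 0.16).

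Cma1, the chymase (ENSMUSG00000022225, chromosome 14, 55941451 to 55944675), was 114, 66.0 and 82.7 in the controls against 1.21, 2.33 and 2.07 in the dKO libraries. Its control spread was wider than that of Cpa3, with control 1 the highest, and no library of one group reached the other. The Cma1 dKO mean of 1.87 ± 0.585 (SD, n = 3) was 2.14% of the control mean of 87.4 ± 24.2 (SD, n = 3), a log2 difference of -4.93 (SE 0.25). That difference was -4.55 with control 1 and dKO 1 both left out.

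The tryptases were lower in level, and their dKO values rest on few reads. Tpsb2 (ENSMUSG00000033825, chromosome 17, 25366305 to 25369098) was 29.8, 24.9 and 31.7 in the controls against 0.155, 0.999 and 0.706 in the dKO libraries, on 2, 13 and 14 reads. Tpsab1 (ENSMUSG00000024173, chromosome 17, 25343245 to 25345562) was 11.8, 5.27 and 16.0 in the controls against 0.0311, 1.07 and 0.122 in the dKO libraries, on 0, 14 and 2 reads. Most of the Tpsab1 reads left in the dKO group thus came from dKO 2, and dKO 1 was the lowest library for both tryptases. By pooled reads, Tpsb2 was 49.7 times as high in controls (95% exact interval 34.4 to 74.5, counting error only) and Tpsab1 34.5 times (21.0 to 60.8). The log2 differences of the value plus 1 were -4.23 (SE 0.27) for Tpsb2 and -3.05 (SE 0.42) for Tpsab1, and edgeR on the recovered reads gave -5.61 and -4.97. The annotated transcripts of the 2 genes, which are paralogs, shared 0 stretches of 50 bases, so no stretch of that length was common to both.

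Hdc, which makes histamine from histidine (ENSMUSG00000027360, chromosome 2, 126593667 to 126619299), was 85.9, 41.3 and 66.3 in the controls against 0.653, 2.70 and 4.21 in the dKO libraries. Control 2 was the lowest control, as it was for all 4 proteases. Hdc varied more within the dKO group than Cpa3 did: its reads there were 10, 36 and 86, and dKO 1 was again the lowest. The means were 64.5 ± 22.3 (SD, n = 3) and 2.52 ± 1.79 (SD, n = 3), or 3.91% of control, with a log2 difference of -4.31 (SE 0.40).

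**Figure D1:**
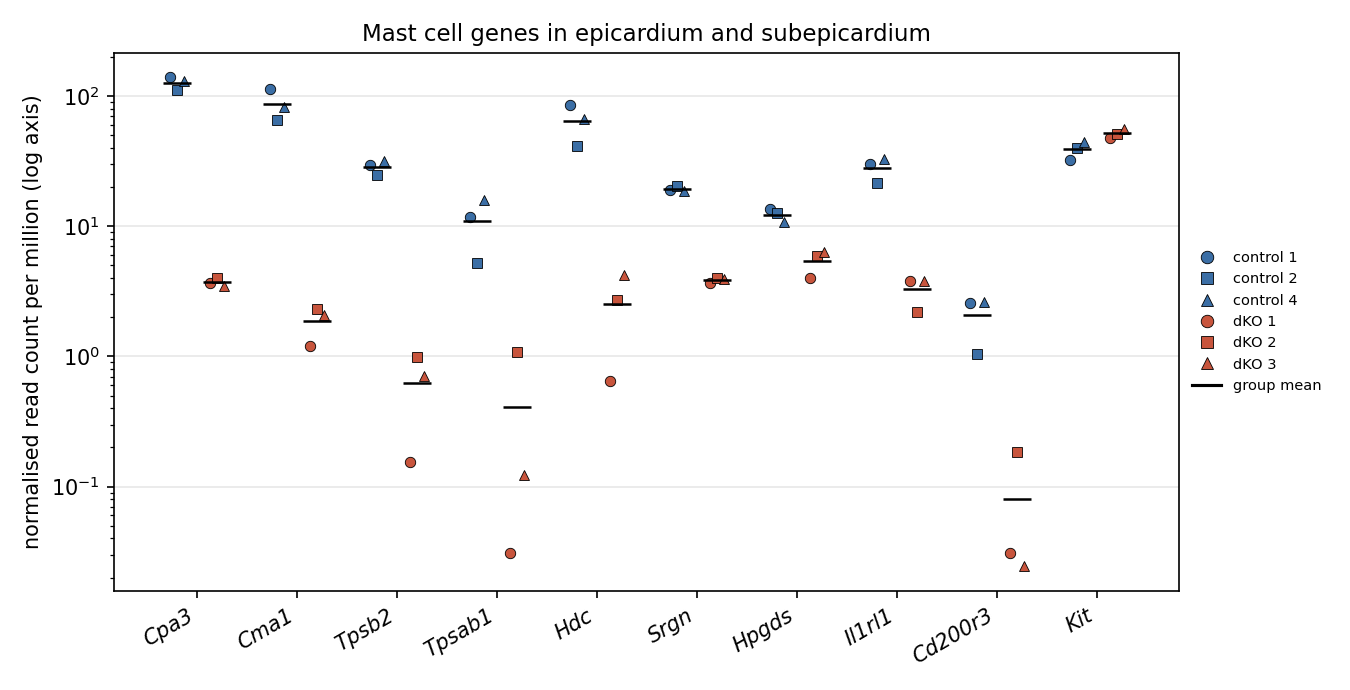
Normalised read counts per 1e6 reads (log axis) of the 10 mast cell genes in each library; blue symbols are control 1, 2 and 4, red symbols dKO 1, 2 and 3, black bars group means. A library with no read is drawn at the value of 0.5 read. Of the 10 genes, 9 lie lower in every dKO library than in any control, and Kit lies at 32.5 to 44.7 in controls and 47.5 to 56.2 in dKO libraries.

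Srgn and Hpgds, which other blood and vascular cells can express too, were lower in the dKO libraries by smaller factors. Srgn (ENSMUSG00000020077, chromosome 10, 62493833 to 62527451) was 19.1, 20.3 and 18.8 in the controls against 3.64, 4.03 and 3.92 in the dKO libraries. Both groups were tight for Srgn, and its dKO mean of 3.86 ± 0.204 (SD, n = 3) was 20.0% of the control mean of 19.4 ± 0.797 (SD, n = 3). The log2 difference was -2.07 (SE 0.20). Hpgds, the haematopoietic prostaglandin D synthase (ENSMUSG00000029919, chromosome 6, 65117293 to 65144908), was 13.5, 12.6 and 10.8 in the controls against 4.01, 5.88 and 6.31 in the dKO libraries. Its groups lay closest among the 9 genes that were lower, at 43.9% of the control mean and a log2 difference of -1.07 (SE 0.24).

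The receptors differed in direction. Il1rl1, the interleukin 33 receptor chain ST2 (ENSMUSG00000026069, chromosome 1, 40429570 to 40465415), was 30.2, 21.5 and 32.7 in the controls against 3.82, 2.18 and 3.82 in the dKO libraries, 11.7% of the control mean and a log2 difference of -2.77 (SE 0.26). Cd200r3, a receptor of the CD200R family found on mast cells and basophils (ENSMUSG00000036172, chromosome 16, 44943678 to 44981380), was 2.56, 1.05 and 2.63 in the controls, on 41, 16 and 41 reads, and had 0, 2 and 0 reads in the dKO libraries. That is a ratio of 51.6 by pooled reads with a 95% exact interval of 13.9 to 432 for counting error, so its size is loosely set. The log2 difference of the value plus 1 was -1.47 for Cd200r3, where the pseudocount weighs heavily, and -5.38 with edgeR.

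Kit (ENSMUSG00000005672, chromosome 5, 75574916 to 75656722) was 32.5, 39.9 and 44.7 in the controls against 47.5, 51.3 and 56.2 in the dKO libraries. It was the one member that was not lower: its dKO mean of 51.7 ± 4.35 (SD, n = 3) was 132% of the control mean of 39.0 ± 6.18 (SD, n = 3). The groups did not overlap but were separated by less than the SD of either, and the log2 difference was 0.41 (SE 0.15). It ran from 0.28 to 0.51 over 14 other settings of the fit, quantile scaling included. Control 1, highest for Cma1 and Hdc, was lowest for Kit.

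Of the 10 members, 9 were lower past the limma threshold, where 12.2% of all 14549 genes were, and 0 were higher past it, where 9.81% were. The groups did not overlap for any of the 10 members, nor for 40.4% of all genes. Of these, 9 members were lower, as were 21.1% of all genes, and Kit was higher, as were 19.3%. Since the members were chosen on this contrast, nothing is read from these counts. The median log2 difference was -2.91 over the members and 0.00 over all genes. In bulk RNA, fewer cells of a type and less RNA per cell cannot be told apart. Tpsb2 and Cd200r3 lay below 1 in all dKO libraries and so were kept by the filter through the controls alone. Tpsab1 reached 1 only in dKO 2 (1.07) and Hdc only in dKO 2 and 3 (2.70 and 4.21). These genes too would not have passed the filter without the controls.

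Per kilobase of annotated exon, the order of the members changed between the groups. The length used joins the exons of all annotated transcripts of a gene, which need not be those expressed here. Levels of different genes are therefore compared only roughly, while the same gene has the same length in both groups. In the controls Cpa3 (83.8 ± 9.59, SD, n = 3) and Cma1 (80.2 ± 22.2) stood highest and did not differ beyond their spread. Tpsb2 (18.05 ± 2.20), Hdc (10.1 ± 3.49), Srgn (8.82 ± 0.363), Tpsab1 (5.26 ± 2.59), Kit (4.38 ± 0.694) and Il1rl1 (4.08 ± 0.855) followed, ahead of Hpgds (1.92 ± 0.211) and Cd200r3 (0.348 ± 0.149). From Hdc down to Srgn and from Tpsab1 down to Il1rl1, neighbours in this order lay within their spread. In the dKO libraries Kit stood highest, at 5.80 ± 0.488 (SD, n = 3) per kilobase. Cpa3 followed at 2.45 ± 0.187, then Srgn at 1.76 ± 0.0929 and Cma1 at 1.72 ± 0.537, which did not differ beyond their spread. Hpgds was at 0.840 ± 0.190, and Il1rl1 (0.475 ± 0.137), Hdc (0.395 ± 0.280), Tpsb2 (0.389 ± 0.269) and Tpsab1 (0.195 ± 0.276) lay within their spread of one another.

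Set against Kit within each library, still per kilobase, the granule genes went on average from above Kit to below it. The log2 ratio of Cpa3 to Kit was 4.65, 4.03 and 4.11 in controls 1, 2 and 4 and -1.15, -1.12 and -1.46 in dKO 1, 2 and 3. Cma1 went from a mean log2 ratio of 4.17 to -1.81, Tpsb2 from 2.05 to -4.27 and Hdc from 1.15 to -4.24. These ratios differed between the groups by 5.51 log2 units for Cpa3, 5.98 for Cma1, 6.32 for Tpsb2 and 5.40 for Hdc, by 3.54 for Il1rl1, by 2.74 for Srgn and by 1.62 for Hpgds. Control 1 had the highest ratio of all controls for each of these genes, and for Tpsab1 it was 0.63 against -0.83 in control 2 and 0.61 in control 4. For Tpsab1 the difference was 6.38, but dKO 1 had 0 reads, so that its ratio of -8.49 is set by the added 0.5 read. Without dKO 1, a setting chosen after seeing the data, the difference was 5.26 for Tpsab1, 5.56 for Tpsb2 and 4.67 for Hdc. For Cd200r3 the ratio rests on 2 dKO reads and is not read further.

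**Figure D2:**
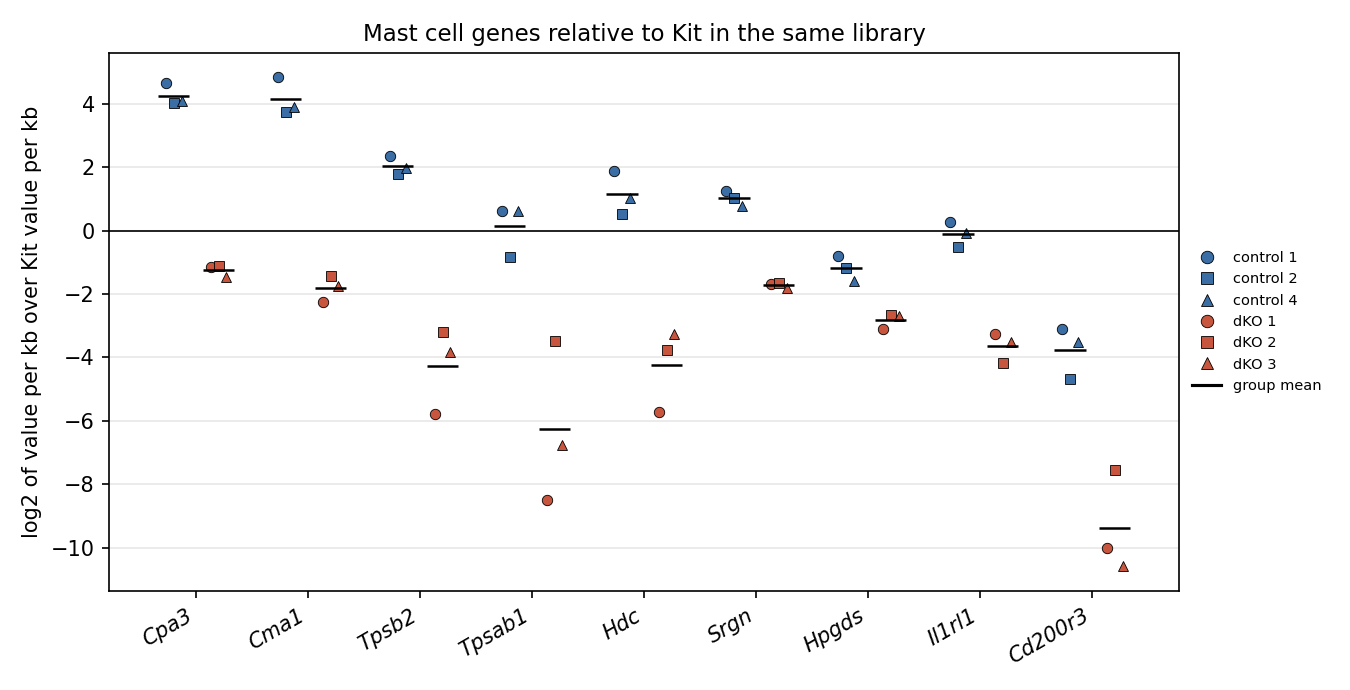
The log2 ratio of each member to Kit in the same library, both per kilobase of annotated exon. Blue symbols are controls, red symbols dKO libraries, black bars group means, and the horizontal line marks equal values per kilobase. Cpa3 lies at 4.03 to 4.65 in controls and at -1.46 to -1.12 in dKO libraries, and Hpgds moves least, from a mean of -1.19 to -2.81.

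The nearest profiles were sought among 11498 genes with a control mean of at least 5, by the root mean square difference of their log2 values, centred on the control mean, over the 6 libraries. Nearest to Cpa3 were Col4a4 (0.138 log2 units), Vwa3a (0.284), Ces2g (0.299), Tm4sf5 (0.334) and Col4a3 (0.359). Col4a4, a chain of the basement membrane collagen IV, was 40.0, 36.0 and 43.0 in the controls against 1.15, 1.07 and 0.9500 in the dKO libraries. No other member was among these 5. Nearest to Kit were the ribosomal protein gene Rps7 (0.0352), Mul1 (0.0402), Ptdss2 (0.0474), Phb (0.0538) and F2r (0.0546). F2r, a thrombin receptor gene, was 86.5, 97.7 and 115 in the controls against 127, 134 and 137 in the dKO libraries.

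Few other mast cell genes could be followed. Of 15 further mast cell genes, among them the IgE receptor chains Fcer1a and Ms4a2 and the chymase family gene Mcpt4, 12 were not among the genes tested, so their level is not known here. Of the 3 tested, 1 was lower and 0 higher by the limma fit (22.0% of all genes were called in either direction), with a median log2 change of -0.51. Tph1, which makes serotonin from tryptophan and is used by mouse mast cells, fell from 3.37, 2.01 and 2.44 to 0.0311, 0.185 and 0.268 (log2 change -1.62, SE 0.31, limma adjusted p = 0.0044; -4.17 with edgeR). Tph1 was kept by the filter through the controls alone, so its call is no independent sign. Slc18a2, the vesicle transporter that loads amines into granules, was 14.8, 14.5 and 12.0 against 8.24, 10.7 and 9.23 and did not pass (log2 change -0.51, limma adjusted p = 0.103). Gata2, a factor of mast cells, progenitors and endothelium, was 8.86, 6.16 and 10.7 against 8.11, 6.55 and 7.04, with overlapping groups (-0.19, limma adjusted p = 0.63).

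Among 11 tested transcription factors of the lineage, Gata2 included, 0 were lower and 2 higher by limma and by edgeR, and 3 were lower at an unadjusted p below 0.05. Mitf, which acts downstream of Kit in mast cells and melanocytes and is also expressed in heart muscle, rose from 16.52, 23.1 and 22.2 to 54.0, 59.1 and 56.6 (log2 change 1.43, SE 0.16, limma adjusted p = 0.00024). Runx1, a blood cell factor, rose from 3.23 ± 1.14 to 8.46 ± 2.84 (1.14, limma adjusted p = 0.027). The call for Runx1 was lost without control 2 (limma adjusted p = 0.0803), control 4 (0.0831), dKO 2 (0.102) or dKO 3 (0.11). The other 8 factors did not pass, at log2 changes of -0.71 for Cebpa, -0.57 for Tal1, -0.53 for Spi1, -0.38 for Ikzf1, -0.33 for Stat5b, -0.24 for Stat5a, -0.06 for Myb and 0.19 for Lyl1. With control 1 and dKO 1 both left out, 1 factor was lower, Tal1.

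Of 9 tested ligands of these receptors and growth factors of mast cells, 3 fell and 1 rose. Kitl, which encodes stem cell factor, the ligand of Kit, was 152, 121 and 141 in the controls against 94.1, 89.4 and 77.5 in the dKO libraries (log2 change -0.66, SE 0.13, limma adjusted p = 0.0059). Every dKO library lay below every control for Kitl, and the fall was smaller than that of any member that was lower. Il33, the ligand of ST2, fell from 88.6, 48.9 and 44.5 to 8.36, 11.2 and 9.87 (-2.45, SE 0.25, limma adjusted p = 0.00013). Control 1 was the highest for Il33, and all dKO libraries lay far below all controls. Cd200, the ligand of the inhibitory CD200 receptor, to whose family Cd200r3 belongs, fell from 50.7 ± 11.6 to 21.4 ± 1.84 (-1.19, limma adjusted p = 0.0015). Cxcl12, a chemokine that draws blood cells through Cxcr4, rose from 39.1, 54.9 and 66.7 to 135, 152 and 171 (1.52, SE 0.19, limma adjusted p = 0.00044). The other 5 of the 9 tested did not pass, among them Tslp at -0.67, Ccl2 at -0.61, Il4 at -0.38 and Tgfb1 at -0.06.

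**Figure D3:**
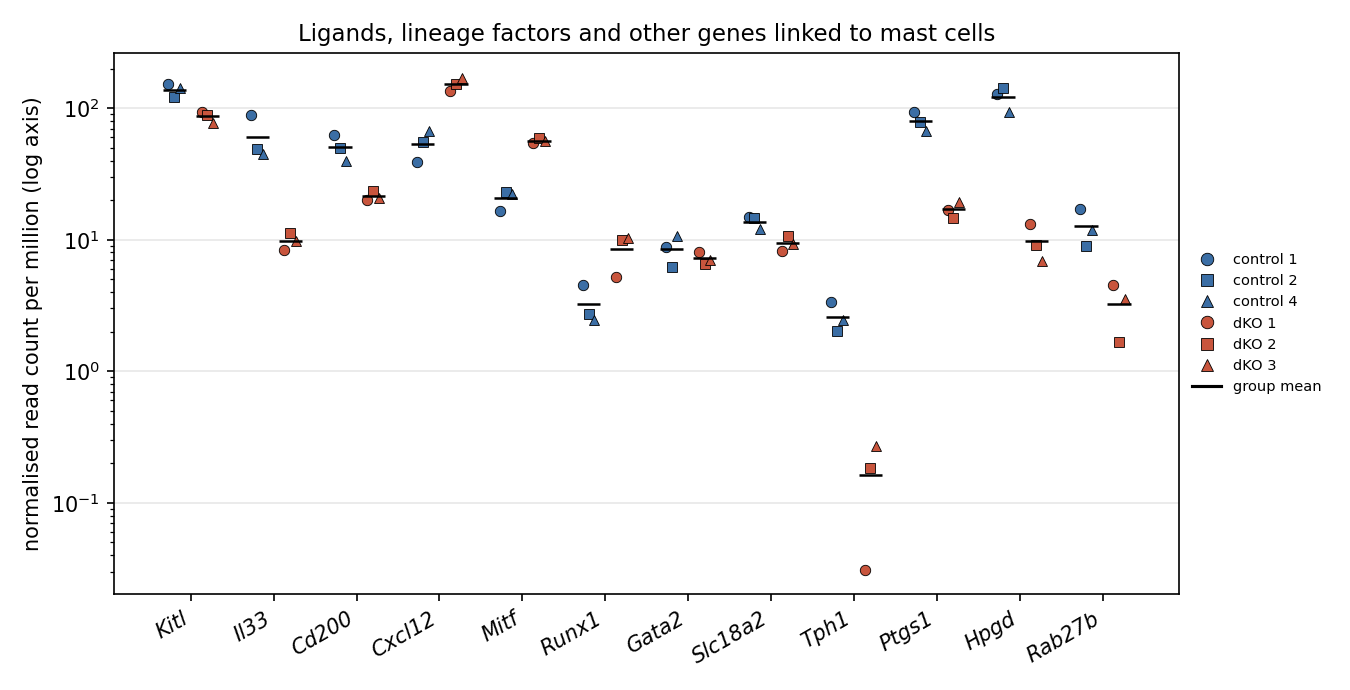
Normalised read counts per 1e6 reads (log axis) in each library for ligands, lineage transcription factors and other genes used by mast cells, none of them members; blue symbols are controls, red symbols dKO libraries, black bars group means. Kitl lies at 121 to 152 in controls and 77.5 to 94.1 in dKO libraries, and Mitf and Cxcl12 lie higher in every dKO library.

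Genes of IgE receptor and Kit signalling, which other leukocytes share, were mixed: of 16 tested, 6 were lower and 2 higher, with a median log2 change of -0.31. Il1rap, the co-receptor that pairs with ST2, fell from 27.2 ± 4.003 to 12.5 ± 2.25 (log2 change -1.07, limma adjusted p = 0.004), and the adaptor gene Lcp2 fell from 9.44 to 4.03 (-1.10, limma adjusted p = 0.022). The kinase gene Syk rose from 18.9 ± 4.06 to 35.8 ± 5.04 (0.89, limma adjusted p = 0.0077) and the phospholipase gene Plcg2 from 6.57 ± 0.620 to 21.8 ± 3.91 (1.58, limma adjusted p = 0.00062). The number lower was 1 without control 2 or dKO 2, 2 without control 4 and 3 without dKO 1. Lcp2 was among the calls lost without control 2, dKO 1 or dKO 2.

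Beside Hpgds, 5 of 10 tested genes of eicosanoid synthesis and breakdown were lower and 0 higher by limma (1 higher at an unadjusted p below 0.05, 0 by edgeR), with a median of -0.93. Hpgd, which inactivates prostaglandins, fell from 129, 142 and 93.8 to 13.2, 9.06 and 6.94 (log2 change -3.53, SE 0.23, limma adjusted p = 9.56e-06). Ptgs1, the constitutive cyclooxygenase that supplies the substrate of Hpgds, fell from 94.3, 78.9 and 66.8 to 16.9, 14.7 and 19.4 (-2.17, SE 0.17, limma adjusted p = 2.68e-05). Ptgis, the prostacyclin synthase, fell from 64.3 to 21.2 (-1.56) and Tbxas1, the thromboxane synthase, from 8.49 to 2.66 (-1.37, limma adjusted p = 0.014; 0.0545 without control 4). Alox5ap and Alox5, which act in leukotriene synthesis, did not pass, at -0.86 and -0.30.

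Of 16 tested genes of heparin chain synthesis and of granule cargo and secretion, 5 were lower and 0 higher by limma (1 higher at an unadjusted p below 0.05, 0 by edgeR), with a median of -0.35. Rab27b, a GTPase of granule secretion, fell from 17.1, 9.03 and 11.8 to 4.51, 1.66 and 3.53 (log2 change -1.71, limma adjusted p = 0.005), and Rab27a fell from 10.7 to 3.94 (-1.22, limma adjusted p = 0.01). The sulfotransferase genes Hs2st1 (87.4 to 52.9, -0.71) and Hs6st1 (79.1 to 51.0, -0.63) also fell. Ndst2, the sulfotransferase of mast cell heparin, did not pass (-0.57, limma adjusted p = 0.0543; 0.0212 without control 2). Of histamine breakdown and receptor genes 1 was tested, the methyltransferase gene Hnmt, which did not pass (2.54 against 1.43, -0.52).

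Markers of other blood cells were read beside the members, since Srgn and Hpgds are not particular to mast cells. Of 14 macrophage genes 5 were lower, with a median log2 change of -0.72: Cd163 (10.9 to 0.805, -2.62), Mrc1 (178 to 56.1, -1.62), Csf1r (114 to 53.2, -1.10) and C1qb (34.0 to 18.7, -0.82) had the smallest p of these. Cd163 reached 1 only in dKO 3 (1.63) and would not have passed the filter without the controls. Its call is therefore no independent sign. The summed macrophage level was 398 to 584 in controls and 190 to 240 in dKO libraries. Of 12 pan-leukocyte genes 3 were lower (Rac2 -1.23, Coro1a -1.10, Cd53 -0.97), with a median of -0.41 and a sum of 195 to 219 against 116 to 168. The common leukocyte antigen Ptprc was 11.8, 8.14 and 8.35 against 4.20, 10.8 and 7.82, with overlapping groups (-0.34, limma adjusted p = 0.482). No test compared these lists with the members, and the part of other leukocytes in the levels of Srgn and Hpgds was not tested.

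For basophils, eosinophils and neutrophils 0 of 6 tested genes passed by limma, 0 at an unadjusted p below 0.05 and 0 by edgeR, with S100a9 at 2.996 against 7.76 and S100a8 at 2.31 against 6.28, both highest in dKO 3. The basophil proteases Mcpt8 and Prss34 were not among the genes tested. Of 3 tested lymphoid genes 0 passed by limma, unadjusted or by edgeR, with Rora at 18.7 against 19.5. For the other cells that carry Kit, 2 of 10 melanocyte genes were tested and 0 passed by limma, unadjusted or by edgeR; Ednrb, an endothelin receptor also found outside that lineage, was 69.9 against 55.1, and Dct, a pigment enzyme, was 0.401, 0.223 and 1.49 against 1.65, 1.15 and 2.996. Of 7 tested blood progenitor genes 1 was lower (Procr, -1.62) and 2 higher (Cd34, 0.43, and Mecom, 0.48), and these are also endothelial genes. Procr lay below 1 in dKO 3 (0.560) and would not have passed the filter without the controls. The calls for Cd34 and Mecom were both lost without control 1 (limma adjusted p = 0.0567 and 0.119) or without control 2, dKO 2 or dKO 3. Of 10 endothelial genes 1 was lower (Tek, 214 to 113, -0.91) and 0 higher by limma or edgeR (1 higher at an unadjusted p below 0.05), with a median of 0.12 and a sum of 1168 to 1761 in controls and 1404 to 1567 in dKO libraries. Without control 1, 3 were lower. Which cells carried the Kit reads in either group was not tested.

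**Figure D4:**
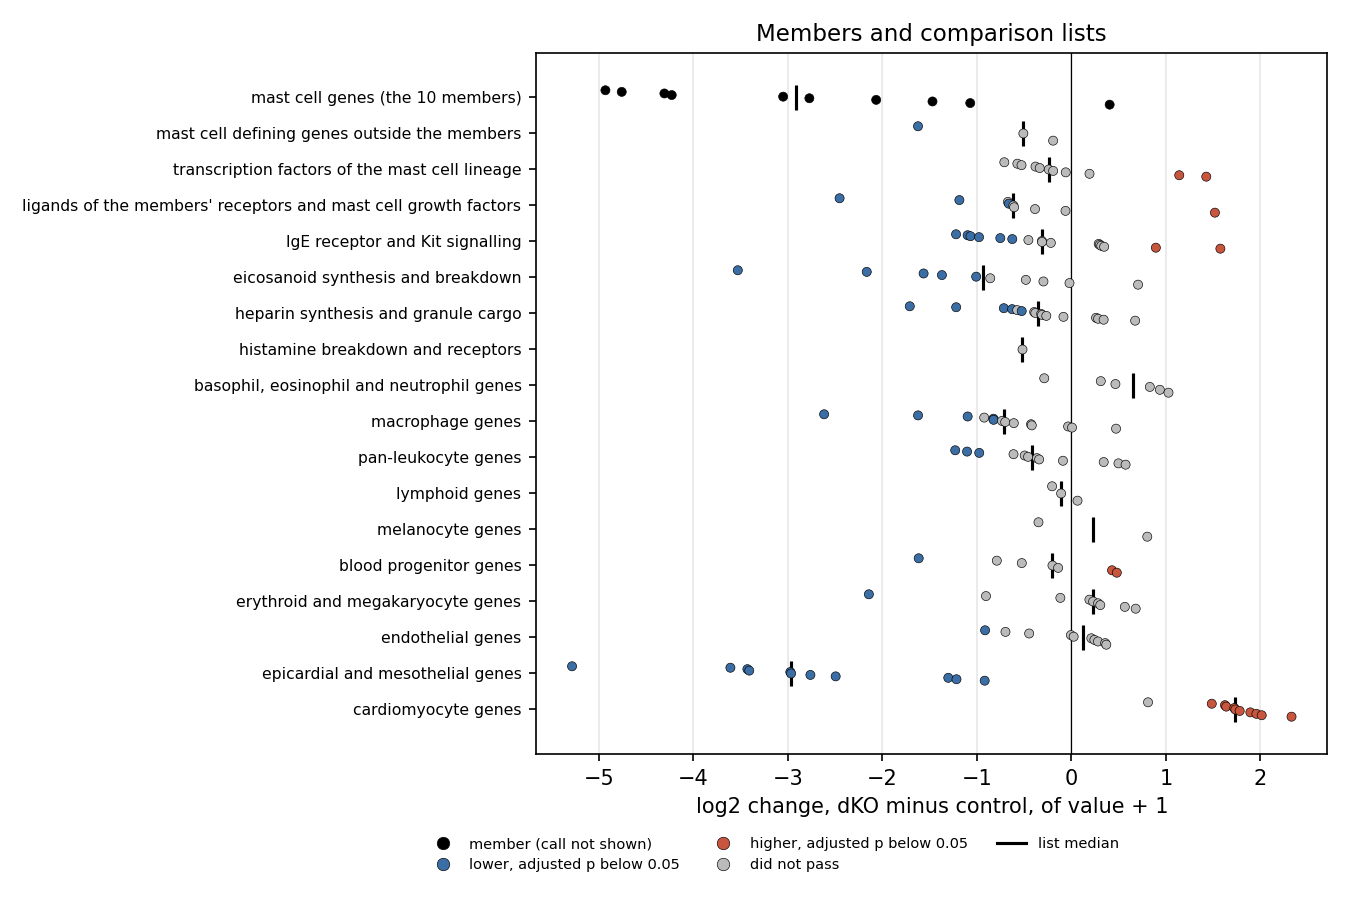
Log2 change (dKO minus control, of the value plus 1) of the 10 members and of each tested gene of 17 comparison lists; blue and red points passed the limma threshold (adjusted p below 0.05) as lower and higher, grey points did not, black points are members, whose calls are not shown, and vertical bars are list medians. The member median is -2.91, that of the macrophage list -0.72, of the endothelial list 0.12 and of the cardiomyocyte list 1.74.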

How the data were processed

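The submitters' processing notes name cutadapt, RSEM 1.3.1 and the GRCm38 build, whereas annotation, normalization and gene filter were not given in the sources used here. Values deposited by the authors are a normalised signal for 14549 genes in 6 libraries. All 87294 values (100%) were whole reads plus 0.5 within a tolerance of 0.01 reads after division by the column minimum. A minimum of 1 in 3 or more libraries removed no gene. Groups were compared with limma 3.58.1 (R 4.3.3, variance trend) on log2 of the value plus 1, two-sided, with Benjamini-Hochberg adjustment over all genes and a threshold of 0.05; this scale understates changes of low genes. By this fit 3205 genes changed, and 2956 by edgeR 4.0.16 (quasi-likelihood) on the recovered reads. The scripts were tested on simulated data. Intervals and depth cover counting error only, and p-values measure the spread between pools. Coordinates and exon lengths come from GENCODE M21, where 14535 identifiers were found, and promoter windows from RefSeq (GRCm38.p6). Starts can differ between the annotations: of the windows shown, that of Hdc lies wholly and that of Kit partly inside the GENCODE span of its gene. The library kit is not stated to keep strand; the exons of the 10 members overlapped no other gene. Of their 50-base stretches, 0 to 5.38% (Cma1) also occurred in another gene. The members, the 17 lists and the motifs were chosen with earlier results of these data known. Named were all members, Meis1 and Meis2, all tested genes of the mast cell, transcription factor, ligand and histamine lists (1 of these is not reported here), up to 4 called genes of smallest p (or the 2 highest) of each other list, and the 5 nearest profiles to Cpa3 and to Kit; Ptprc, Alox5, Alox5ap and Ndst2 were added after their values were seen.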

Additional observations from a re-analysis of the deposited data

How the results depend on the processing

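The 9 members that were lower stayed lower, and Kit stayed higher, under 14 other settings, except that Cd200r3 is not tested with the filter at 5 (8 lower there): a pseudocount of 0.25, a filter at 5, no filter, quantile normalization, no variance trend, edgeR on recovered reads, a replicate block, each library left out, and control 1 and dKO 1 both left out, the last chosen after seeing the data. Their log2 differences moved by more than the spread between libraries mainly with the pseudocount and edgeR. With the replicate block 1360 genes changed, 580 higher and 780 lower, and 25 genes of the other lists were lower against 41; the calls for Kitl (limma adjusted p = 0.173), Il1rap (0.0732), Syk (0.0656) and Runx1 (0.318) were among those lost. Numbers 1 and 2 occur in both groups, and same-numbered libraries did not deviate together (correlations -0.18 and -0.20). With 3 libraries per group these correlations cannot show whether the numbers mark pairs, so the block fit is given beside the main fit. Control 4 and dKO 3 have no library of the same number in the other group. Under the block the difference therefore rests on the libraries numbered 1 and 2 alone. Leaving out 1 library gave 898 to 1262 higher genes. With the filter at 5, the number of lower mast cell genes outside the members was 0, since Tph1 is then not tested. Between 2 and 29 reads in all lie behind the dKO values of Tpsb2, Tpsab1 and Cd200r3, so their folds are set loosely.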

Other observations

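Haemoglobin and platelet genes were read as a check on blood left in the dissected layer, outside the mast cell comparison. Of 9 tested erythroid and megakaryocyte genes 1 was lower and 0 higher by the limma fit, with a median log2 change of 0.23. The erythroid genes Hbb-bs (1202, 551 and 611 against 977, 706 and 1059) and Alas2 (32.3, 15.7 and 10.8 against 20.3, 18.9 and 28.1) overlapped between the groups, with control 1 the highest library for both. Without control 1, 3 genes of the list were higher and 2 lower. The gene that fell was Pf4, a chemokine of platelets that some macrophages also express, from 21.4, 22.2 and 34.4 to 4.63, 4.70 and 5.68 (log2 change -2.14, SE 0.23, limma adjusted p = 0.0002). Of the other platelet genes, Ppbp, a chemokine, was 2.38, 8.52 and 3.65 against 1.83, 2.18 and 1.53, without overlap, and did not pass (-0.90, unadjusted p = 0.0383, limma adjusted p = 0.119; 0.0398 without control 1). The platelet integrin gene Itga2b did not pass either (-0.12, limma adjusted p = 0.845). The values of Hbb-bs, Alas2, Ppbp and Itga2b were singled out after they were seen.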
